A study of Mus musculus with 6 samples.

Results

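The results below describe the transcriptome of RAW264.7 cells held under lipopolysaccharide (LPS), from the 3 libraries that the study labels as LPS-induced, which are 3 of its 6 libraries. The libraries were chosen by their treatment label. The question is which transcripts and which macrophage functions were abundant, scarce or not detected in that state. RAW264.7 is a mouse macrophage-like line derived from a tumour raised in a male BALB/c mouse with Abelson murine leukaemia virus. The labels call it a leukaemia line of the monocyte and macrophage lineage and give its genotype as WT. The cells received LPS, a cell-wall component of Gram-negative bacteria, at 100 ng/mL for 48 h. The other 3 libraries also received low-intensity pulsed ultrasound and are not compared here. All of the study's samples had LPS, so levels are described and a response to it could not be. The labels do not say whether the 3 repeats were separate cultures, so the spread between them may be technical.

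Macrophages engulf particles and degrade them in acidified lysosomes, recycle iron from haem, and present peptides on major histocompatibility complex (MHC) molecules. LPS is bound by CD14 and recognised by TLR4 with MD-2, and the adaptors MyD88 and TRIF then lead to NF-kB, to the MAP kinases and to interferon genes. Activated mouse macrophages are known for making nitric oxide with inducible nitric oxide synthase, cytokines, chemokines and prostaglandins. After long exposure, feedback inhibitors accumulate and many inflammatory genes become refractory, a state known as LPS tolerance.

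RNA was selected by its poly(A) tail. Library totals were 15956693, 15606264 and 14984236 counts, and 17061 to 17150 of 39089 genes had a count in each library. Levels are given as TPM, the count divided by gene length and scaled to the same sum in every library. Genes can then be compared with each other as far as the deposited lengths fit the transcripts present, which was not tested. A length that is too long lowers the TPM. For example, Rps15a, a ribosomal protein gene listed at 5136 bases, ranked 288 by TPM and 99 by counts. Of the genes in the table, 11382 reached 1 TPM in all 3 libraries, and 10305 of these were protein-coding, which is 47.3% of 21770 protein-coding genes. Another 7408 protein-coding genes, 34.0%, had 0 counts in all 3 libraries. Where a gene had 0 counts, the upper limit was set at 3 counts, or 0.188 to 0.200 CPM (counts relative to the library total). Intervals and such limits cover counting error only. The libraries ranked genes alike, with Spearman correlations of 0.992 to 0.993 across the genes of 1 TPM and over, given as a description because genes are not independent replicates.

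The label of a macrophage line was checked against marker lists. Of 12 macrophage markers 11 reached 1 TPM in every library, the lowest of these being Fcgr1 at 8.92, 9.02 and 6.45 TPM. The exception was Mertk, a receptor for apoptotic cells, at 0.0254, 0.0263 and 0.163 TPM. The summed level of the 12 was 21193, 20879 and 20714 TPM, of which Lyz2 alone made up 76.2%. Of 46 markers of T, B, NK, dendritic, endothelial, epithelial, erythroid and fibroblast cells and of neutrophils, 1 reached 1 TPM in every library and 22 had 0 counts. Their summed level was 9.06, 7.32 and 7.89 TPM. The marker above 1 TPM was S100a8, a calcium-binding protein of neutrophils and activated myeloid cells, at 5.27, 3.74 and 3.87 TPM. All 4 NK cell markers and all 4 epithelial markers were at 0 counts.

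The RNA was concentrated in few genes. The most abundant gene held 4.78% ± 0.03 (SD, n = 3) of all TPM, the top 10 held 16.2% ± 0.34, the top 100 held 44.4% ± 0.68 and the top 1000 held 74.1% ± 0.45. In libraries 1, 2 and 3 the top 100 held 44.995%, 43.65% and 44.45% of TPM. These values were close to each other, with library 2 the least concentrated. Between 141 and 156 genes made up 50% of TPM, and 3355 to 3471 genes made up 90%. On raw counts, which favour long genes, the top 100 held 26.4% ± 0.57 and 591 to 632 genes made up 50%. Of the top 100 genes by TPM, 72 were also in the top 100 by counts. The median length of the top 100 was 939 bases by TPM and 1575.5 bases by counts.

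**Figure D1:**
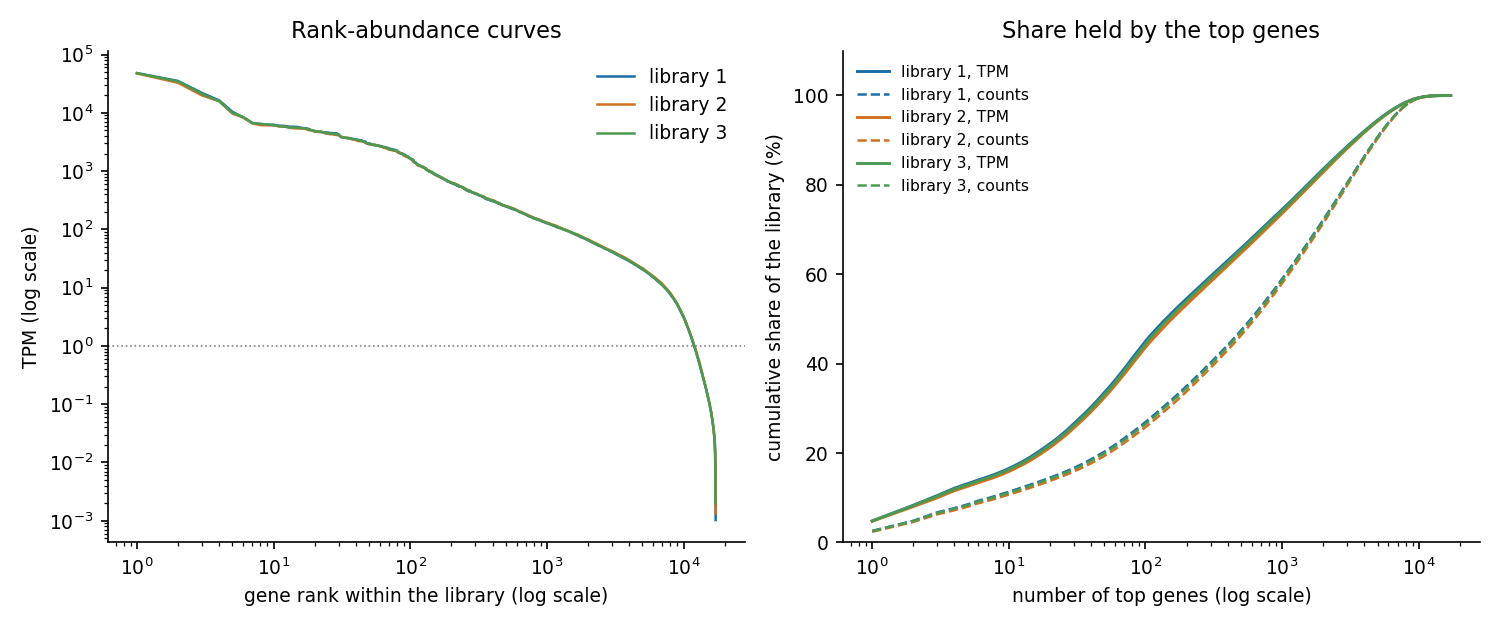
Left, TPM of each gene against its rank within a library, both on log scales, with the dotted line at 1 TPM. Right, cumulative share of the library against the number of top genes on a log scale, for TPM (solid) and counts (dashed). The curves of the 3 libraries lie on each other, and the top 100 genes hold 44.4% of TPM and 26.4% of counts.

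The levels of protein-coding genes formed steep tiers. The 129 genes of at least 1000 TPM on average held 47.3% of TPM, the 1153 genes between 100 and 1000 TPM held 27.8%, and the 5737 genes between 10 and 100 TPM held 19.4%. A further 3499 genes between 1 and 10 TPM held 1.65%, and the 3844 genes with counts but under 1 TPM held 0.0828%. The spread between libraries grew in the same order. The median coefficient of variation (CV, the SD over the mean) was 1.81% in the top tier, 3.14%, 5.05% and 9.89% in the next tiers, and 86.6% under 1 TPM. Under 1 TPM the median gene had 2 counts per library, so such levels are imprecise.

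The top of the ranking was made of iron storage, translation and lysozyme. Ftl1, the light subunit of ferritin, the protein cage that stores iron, ranked 1 in every library at 48015, 47426 and 47858 TPM. It lies at chr7:45457944-45459886 on the minus strand of mm10. Fth1, the heavy ferritin subunit with the ferroxidase activity, ranked 2 at 35145, 32726 and 34548 TPM and lies at chr19:9980600-9985111. The ranges of the 2 subunits did not overlap, and together they held 8.19% ± 0.16 of TPM. Eef1a1, the elongation factor that brings aminoacyl-tRNA to the ribosome, ranked 3 at 21806, 19857 and 21041 TPM. Lyz2, the lysozyme of mouse myeloid cells, ranked 4 at 16307, 15809 and 15744 TPM and lies at chr10:117277541-117282272 on the minus strand. Spp1, or osteopontin, a secreted adhesion protein and cytokine of macrophages and bone, ranked 5 at 10386, 9684 and 9961 TPM and lies at chr5:104435111-104441053. The order of these 5 was the same in each library.

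The same 10 genes filled the top 10 in each library, and the same 30 genes the top 30. Beyond the first 5 they were ribosomal protein genes with few exceptions, among them Eef2, which moves the ribosome along the mRNA, at 6204 ± 106 TPM, Tpt1, a translation-associated growth protein, at 5517 ± 224 TPM, the ribosome scaffold Rack1 at 4413 ± 115 TPM and the lysosomal protease Ctsd at 4400.2 ± 82.3 TPM. Of 29 neighbouring pairs in the top 30, 16 stood in the same order in all 3 libraries and 12 had ranges over the libraries that did not overlap. Rplp1, an acidic stalk protein of the ribosome, led the ribosomal proteins at 8306, 8317 and 8442 TPM. The 87 cytosolic ribosomal protein genes and paralogs held 24.2% ± 0.28 of TPM and 9.96% of counts, and 65 of them stood in the top 100. The paralogs Rpl10l, Rpl39l and Rps4l, which are known from testis and other restricted tissues, had 0 counts.

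**Figure D2:**
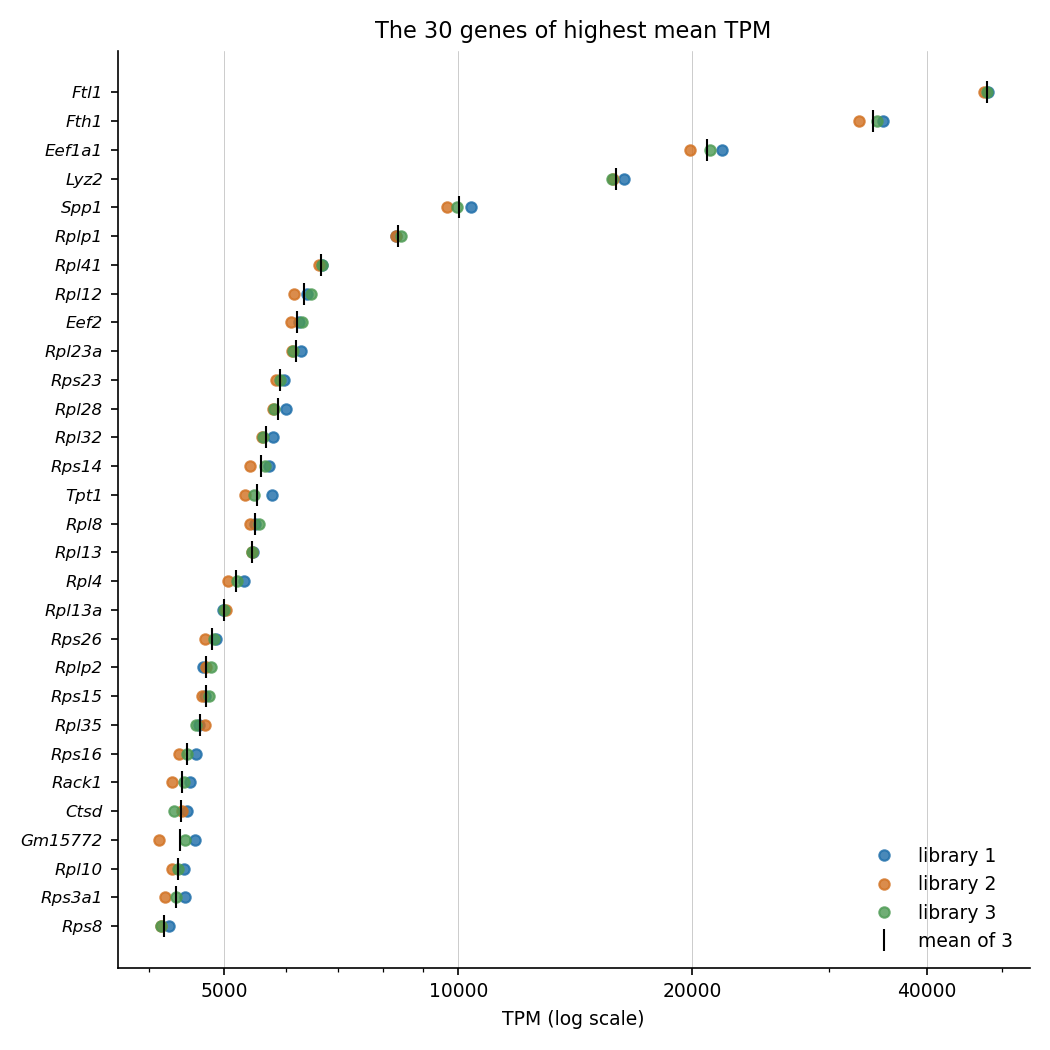
TPM in each library (points) and the mean of 3 (vertical mark) for the 30 genes of highest mean TPM, on a log scale. Ftl1, Fth1, Eef1a1, Lyz2 and Spp1 are separated from each other in all 3 libraries, and from Rplp1 downwards neighbours mostly overlap.

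Ranks of genes with near-identical copies are uncertain, because how reads that match several places were counted is not given in the sources used here. Rps18, a ribosomal protein gene, was listed at 711 TPM and its processed copy Rps18-ps4 at 2479.8 TPM. Rpl26 was listed at 451 TPM, and Gm15772, typed as a transcribed pseudogene, at 4388 TPM, rank 27 of all genes. Other ribosomal proteins that every ribosome carries were listed far below the group's median of 2693 TPM, such as Rpl29 at 47.2 TPM and Rpl21 at 301 TPM. The cytoskeletal actins Actb and Actg1, nearly identical in coding sequence, were listed at 463 TPM and 444 TPM, ranks 264 and 276. Lyz2 also has a close tandem copy, Lyz1, listed at 3407 ± 125 TPM. The part of read assignment in these levels was not tested.

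By gene type, protein-coding genes held 97.9% ± 0.034 of counts and 96.2% ± 0.037 of TPM. Long noncoding RNA genes held 1.67% ± 0.033 of counts and transcribed pseudogenes 0.306% ± 0.0076. All other types together were minor, led by ribosomal RNA at 0.0855% ± 0.0035, which came from the mitochondrial rRNA genes mt-Rnr2 at 703, 703 and 711 TPM and mt-Rnr1 at 752, 619 and 682 TPM. The widest 95% Wilson interval of such a share in 1 library was 0.0147 percentage points. Division by length raised the short classes: tRNA genes held 0.0175% of counts but 0.519% of TPM, and snoRNA genes held 0.0132% of counts but 0.272% of TPM. Poly(A) selection removes most RNAs without a tail, so the counts of these classes do not give their cellular levels. The 24 mitochondrial genes in the table were tRNA and rRNA genes and held 0.103% of counts. Mitochondrial protein genes were not among them and are not analysed here, so all shares and ranks leave them out.

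Among genes typed as lncRNA, Bc1, a short RNA known from neurons and related to a repeat family, was listed highest. It was at 2479.7, 3047 and 2554 TPM, from 2850 to 3517 counts per library over a length of 154 bases. How reads shared with other copies of the repeat were counted is not given, so the rank of Bc1 is uncertain. Malat1, a nuclear RNA of speckles, came after the Rps18 copy within this type, at 1523, 1422 and 1591 TPM. Gas5, a growth-arrest transcript that hosts snoRNAs, was at 663, 588 and 609 TPM, and Neat1, the scaffold of paraspeckles, at 216, 223 and 204 TPM. The 3 libraries lay close together for Malat1, Gas5 and Neat1, while Bc1 was higher in library 2 than in both others. Mir155hg, the host transcript of miR-155, a microRNA induced in activated macrophages, was at 9.80, 10.9 and 11.2 TPM. The imprinted lncRNA Meg3 had 0 counts. The 7SL RNA genes stood apart: Rn7s2 had 114, 2601 and 1047 counts and Rn7s1 had 110, 904 and 521 counts, both lowest in library 1 and highest in library 2.

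Macrophage identity genes held 2.76% ± 0.034 of TPM, with 24 of 26 at or above 1 TPM in every library and 17 above 100 TPM on average. After the lysozymes came Cd68, a membrane protein of late endosomes, at 1347, 1365 and 1352 TPM, and Tyrobp, the DAP12 signalling adaptor, at 1196, 1228 and 1179 TPM. Cd14, the LPS coreceptor, was at 625, 744 and 682 TPM, Csf1r, the receptor for the growth factor CSF1, at 274, 317 and 301 TPM, and Adgre1, the F4/80 antigen, at 158, 161 and 156 TPM. All 3 were well above the protein-coding median of 19 TPM taken over genes of 1 TPM and over. Among the transcription factors of the lineage, the highest included Cebpb at 242, 303 and 273 TPM and Spi1, which encodes the pioneer factor PU.1, at 219, 245 and 243 TPM. Irf8 was at 45.9 ± 2.9 TPM and Cebpa at 3.43 ± 0.35 TPM. Maf, a leucine zipper transcription factor, had 3, 3 and 1 counts.

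The degradative machinery was abundant in nearly all its members. Lysosomal hydrolases and membrane proteins held 2.18% ± 0.014 of TPM, 22 of 26 stood above 100 TPM on average, and the list's median was 627 TPM. Cathepsin D was highest at 4478, 4408 and 4314 TPM, followed by the cysteine protease Ctsb at 2321, 2216 and 2271 TPM and the protease inhibitor Cst3 at 1735, 1755 and 1771 TPM. Psap, which supplies activators of sphingolipid breakdown, was at 1639.5 ± 15.1 TPM. At the other end, cathepsin C was at 5.19, 5.07 and 4.63 TPM, over a listed length of 11142 bases, and cathepsin H had 6, 4 and 5 counts. All 18 subunits and accessory proteins of the V-ATPase, the proton pump that acidifies lysosomes, were above 1 TPM, and they held 0.578% ± 0.0019 of TPM. Tcirg1, the membrane subunit known from osteoclasts, led at 1152, 1130.4 and 1145 TPM. Gpnmb, a lysosomal glycoprotein of lipid-laden macrophages, was at 2714, 2848 and 2691 TPM, and Sqstm1, the autophagy receptor p62, at 2689.9, 2729 and 2756 TPM; both were in the top 100.

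Lysosomal genes are known targets of the transcription factors MITF, TFEB and TFE3, which bind an E-box. Its letters TCACGTG, on either strand, were in the promoter window of 5 of 19 lysosomal genes and 3 of 9 V-ATPase genes that have one in the table, against 4.52% of all 13536 windows. Among windows of genes between 10 and 100 TPM the share was 7.36%. It was 8.81% between 100 and 1000 TPM and 7.53% at 1000 TPM and over. Most members of both lists had at least 100 TPM. The window is 250 bases before to 50 after the annotated gene start, from RefSeq on GRCm38.p6. The stretches around each match are shown because these 8 genes cover a wide range of levels, from 4400.2 TPM for Ctsd to 65 TPM for Gla; capitals mark the motif on either strand.
Ctsd (chr7:142388059-142388077, minus strand): tccccCACGTGAcctgtat
Lamp1 (chr8:13159092-13159112, plus strand): caagataTCACGTGgtccagc
Gaa (chr11:119267815-119267835, plus strand): tgtgcgaTCACGTGtttgact
Glb1 (chr9:114401022-114401042, plus strand): ttctgagTCACGTGgcctaca
Gla (chrX:134601220-134601240, minus strand): cgattgaTCACGTGagcatct
Atp6v0b (chr4:117887353-117887373, minus strand): gcgggggTCACGTGgggtcgg
Atp6v0e (chr17:26676391-26676411, plus strand): gcgccgaTCACGTGagcctct
Atp6v0d1 (chr8:105566055-105566075, minus strand): actgcggTCACGTGagacgcg
A match is a run of letters and not evidence of binding. Mitf itself was at 24.4, 22.9 and 24 TPM, and the levels of Tfeb and Tfe3 are not reported here.

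Transcripts for iron storage were very high and that for iron export was low. Beside ferritin, Hmox1, the enzyme that opens haem and frees its iron, was at 1600.4, 1822 and 1704 TPM, and Lcn2, a secreted protein that captures bacterial siderophores, at 874, 818 and 864 TPM. The phagosomal metal transporter Slc11a1 was at 131, 143 and 137 TPM and the transferrin receptor Tfrc, which takes up iron, at 105, 92.9 and 97.3 TPM. Slc40a1, or ferroportin, the iron exporter, was at 7.43, 7.04 and 6.41 TPM. Hamp, the hormone hepcidin that degrades ferroportin, had 1, 5 and 0 counts, and the ferrireductase gene Steap4 had 0 counts, which allows at most 0.132 TPM.

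Genes of the oxidative burst and of defence against oxidants held 0.811% ± 0.018 of TPM, and 26 of 29 reached 1 TPM in every library. The membrane subunits of the phagocyte NADPH oxidase were at 969.5, 1030.1 and 986 TPM for Cyba and 469, 449 and 443 TPM for Cybb, and cytosolic subunits Ncf1 and Ncf4 at 259.7 TPM and 111 TPM. The metal-binding metallothioneins Mt2 and Mt1 were at 1029 ± 48.9 TPM and 587 ± 33.1 TPM. Cytosolic superoxide dismutase Sod1 was at 799.5 ± 2.2 TPM, against 134 ± 3.2 TPM for the mitochondrial Sod2, a known NF-kB target. The quinone reductase Nqo1 had 0, 2 and 1 counts and the extracellular Sod3 had 0.

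The receptors that sense LPS and nucleic acids were present at modest levels. Tlr4, the LPS receptor, was at 5.07, 5.34 and 5.56 TPM, Ly96, which encodes MD-2, at 16.9, 13.3 and 13.7 TPM, and Tlr2, the receptor for bacterial lipoproteins, at 24.7, 29.1 and 25.9 TPM. Unc93b1, the chaperone of endosomal Toll-like receptors, was the highest of this list at 296, 322 and 291 TPM, although the nucleic acid receptors it carries, Tlr7, Tlr9 and Tlr3, were at 4.69 TPM, 2.07 TPM and 0.263 TPM. Tlr5, Tlr8, Tlr11, Tlr12 and the LPS-binding protein Lbp, made mainly by liver, had 0 counts. The adaptors Myd88 and Ticam1 were at 42.1 ± 2.1 TPM and 50.8 ± 1.2 TPM. In bulk RNA, fewer cells with a transcript and less transcript per cell cannot be told apart.

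All 15 genes of NF-kB and its inhibitors were above 1 TPM, between 10.8 TPM for Nfkbie and 272 TPM for Nfkbia, which encodes the inhibitor IkBa. The inhibitory genes covered the whole range of the list. Nfkbia was at 263, 265.3 and 287 TPM, Tnip1 at 139, 153 and 149.8 TPM and Nfkbie, another IkB gene, at 10.1, 12 and 10.2 TPM, while the subunit genes Nfkb1 and Rela were at 39.7, 40.8 and 42.3 TPM and 37.3, 41.3 and 41.2 TPM. Of 19 genes of feedback and tolerance all were above 1 TPM. The highest were Lilrb4a, an inhibitory receptor, at 1127, 1089 and 1118 TPM, and Zfp36, or tristetraprolin, which destabilises cytokine mRNAs, at 288, 403 and 389 TPM. Acod1, which makes itaconate, was at 118, 146 and 142 TPM, Socs3, an inhibitor of cytokine signalling, at 71.8, 98.4 and 103 TPM, and the decoy kinase Irak3 at 14.6, 16.6 and 15.8 TPM. For Zfp36 and Socs3 library 1 was lower than both others.

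Cytokine genes were very uneven. The list held 1.25% ± 0.036 of TPM, of which Spp1 alone made up 80.2%. Mif, a constitutively made cytokine, was at 1794, 1784 and 1772 TPM, and Tgfb1, an inhibitory cytokine, at 172, 175 and 176 TPM. Tnf, the classical early product of LPS, was at 113, 125 and 111 TPM, below Il1rn, the interleukin 1 receptor antagonist, at 142, 139 and 136 TPM; these ranges did not overlap. Il1b itself, which encodes interleukin 1 beta, was at 3.84, 2.30 and 3.17 TPM. Il6 had 3, 2 and 2 counts and Il10, the main inhibitory interleukin of macrophages, had 6, 0 and 4 counts. Il12a and Il12b, the subunits of interleukin 12, and Ifng, Il13, Il33 and Gdf3 had 0 counts, and these zeros allow at most 0.343 TPM. Of 31 cytokine genes 16 reached 1 TPM in every library, which is near the 47.3% of all protein-coding genes that did.

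Among chemokines Ccl3, which attracts monocytes and T cells, made up 67.0% of the list at 2744, 2525 and 2688 TPM. It was followed by Ccl9 at 473, 420.2 and 437 TPM, the neutrophil attractant Cxcl2 at 278, 263 and 274 TPM, Ccl4 at 254, 283 and 286 TPM and Ccl5 at 221, 205 and 213 TPM. The ranges of Cxcl2 and Ccl4 overlapped, and that of Ccl5 lay below both. Ccl2, a monocyte attractant, was at 25.9, 26.8 and 24.7 TPM. The interferon-induced Cxcl10 was at 3.40, 2.30 and 4.64 TPM, and its relatives Cxcl9 and Cxcl11 had 0 counts and 3, 1 and 1 counts. Cxcl1, Cxcl12, Cxcl13, Ccl11 and Ccl24 were also at 0 counts. Of 25 chemokine genes 11 reached 1 TPM in every library, also near the share of 47.3% over all protein-coding genes.

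Transcripts for arginine use were measured on both of its branches, and arginine use itself was not. Nos2, which encodes inducible nitric oxide synthase, was at 189, 204 and 196 TPM, rank 642 of all genes. Arg1, the arginase that competes for the same arginine, had 4, 5 and 1 counts, and Arg2, the mitochondrial arginase, was at 10.8, 8.66 and 11 TPM. Gch1, which starts the synthesis of the cofactor tetrahydrobiopterin, was at 34.6, 41.9 and 36.9 TPM, and Odc1, the first enzyme of polyamine synthesis, led the list at 869.7, 839 and 880.3 TPM. Slc7a1, a constitutive cationic amino acid transporter, was at 45.3 ± 0.78 TPM, while the inducible transporter Slc7a2 had 19, 15 and 21 counts. In prostanoid synthesis, the inducible cyclooxygenase Ptgs2 was at 61.7, 55.6 and 59.8 TPM and the constitutive Ptgs1 at 0.696, 0.785 and 0.612 TPM. The inducible prostaglandin E synthase Ptges was at 9.12, 9.38 and 9.25 TPM. Alox5ap, the membrane partner of 5-lipoxygenase, was at 243, 238 and 227 TPM, and the lipoxygenase Alox5 at 6.94, 8.78 and 7.27 TPM.

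The inflammasome, which activates caspase 1 and matures interleukin 1 beta, had its adaptor near the limit of detection. Pycard, the adaptor ASC, had 2, 5 and 3 counts, and RAW264.7 cells are known not to make this protein. The sensor Nlrp3 was at 2.91, 3.85 and 3.59 TPM and the DNA sensor Aim2 at 37.5, 33.2 and 36.1 TPM. Downstream, Casp1 was at 55.9, 54.6 and 47.1 TPM and the pore-forming Gsdmd at 94, 102 and 95.5 TPM. Txnip, a thioredoxin-binding protein that also limits glucose uptake, held 84.9% of this list's TPM at 1579, 1612 and 1582 TPM.

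Interferon-stimulated genes spanned a wide range. The membrane proteins Ifitm3 and Bst2, which block virus entry and release, were highest at 2096, 2014 and 2079 TPM and 950.2, 998 and 971 TPM. Irf7, the factor that amplifies interferon synthesis, was at 273, 277 and 272 TPM, and Usp18, which removes ISG15 from proteins, at 139.6, 149 and 141 TPM. Several textbook members were low: Ifit1 was at 4.16, 3.64 and 4.34 TPM, Ifit3 at 1.29, 1.53 and 1.64 TPM and Mx2 at 4.31, 3.47 and 4.44 TPM. Mx1 had 3, 0 and 2 counts, and Iigp1, an immunity-related GTPase, had 0. Interferon beta itself, Ifnb1, had 1, 0 and 3 counts. In all, 30 of 32 genes reached 1 TPM in every library, with a median of 11.6 TPM, and the list held 0.459% ± 0.00071 of TPM.

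These genes are known to carry an interferon-stimulated response element, bound by transcription factors that interferon activates. Its core, searched as GAAA, any 2 bases and GAAA again on either strand, was in 15 of 20 of their promoter windows, against 3.61% of all windows. The 5 most abundant genes with a match are shown, with the 10 matched letters in capitals.
Ifitm3 (chr7:141010726-141010749, minus strand): aattcagGAAAAGGAAActtctga
Bst2 (chr8:71537586-71537609, minus strand): attccagGAAAATGAAActgaaag
Oas3 (chr5:120777718-120777741, minus strand): gggaggaGAAAACGAAAgtgaagg
Oas1a (chr5:120907529-120907552, minus strand): ttctcggGAAATGGAAActgaaaa
Isg15 (chr4:156200880-156200903, minus strand): gccgtagGAAAAGGAAAccgaaac
The windows with this core belonged to genes at very different levels, since the 15 genes ranged from 2063 TPM for Ifitm3 to 1.56 TPM for Gbp2. Stat2 and Irf9, which encode factors of interferon signalling, were at 26.7, 27.9 and 25.7 TPM and 24.9, 29.3 and 24.2 TPM.

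Antigen presentation genes were uneven between the MHC classes. All 16 class I and peptide-loading genes were above 1 TPM, and they held 0.941% ± 0.018 of TPM. B2m, the light chain, was at 2992, 2733 and 2778 TPM, H2-D1, a heavy chain, at 2307, 2231 and 2303 TPM, and the peptide transporter genes Tap1 and Tap2 at 101 ± 6.1 TPM and 88.8 ± 1.7 TPM. The MHC heavy chains are close relatives, so their individual levels are uncertain. Of the class II list, Cd74, the invariant chain, was at 998, 1020.1 and 1022 TPM and Ctss, which cleaves it, at 944, 931 and 914 TPM. The class II chains were near zero: H2-Aa had 0 counts, which allows at most 0.367 TPM, H2-Ab1 had 6, 12 and 14 counts and H2-Eb1 had 6, 4 and 11 counts. Ciita, the master regulator of class II genes, was at 0.737, 0.994 and 1.15 TPM. Of the costimulatory genes, Cd40 was at 37.4, 36.4 and 31.8 TPM, Cd80 at 14.6, 12.9 and 14.3 TPM and Cd86 at 1.42, 2.36 and 1.36 TPM, while Cd274, the inhibitory ligand PD-L1, was at 158, 143 and 158 TPM.

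Uptake receptors formed a partial set. The C-type lectins Clec4d and Clec4e, which bind mycobacterial glycolipids, were at 283, 292 and 286 TPM and 131, 126 and 124 TPM, and Lrp1, a large endocytic receptor, at 222, 238 and 226 TPM. Msr1, a scavenger receptor, was at 28.8, 29.7 and 28.2 TPM, and Cd36, which takes up oxidised lipids, at 9.35, 8.35 and 8.16 TPM. Marco, Cd163, Timd4, Cd209a and Trem1 had 0 counts. Mrc1, the mannose receptor, had 6, 6 and 0 counts. Genes of alternative activation, the programme driven by interleukin 4, held 0.00512% ± 0.00031 of TPM, and 4 of 15 reached 1 TPM in every library. Chil3, Retnla, Cd163 and Ccl24 had 0 counts. The highest was Tgm2, a transglutaminase, at 38.8, 38.1 and 44.7 TPM, which made up 79.2% of the list.

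Genes that mark macrophages of particular tissues were largely undetected. Of 17 such genes 10 had 0 counts, against 34.0% of all protein-coding genes. They were Gata6 of peritoneal, Clec4f of liver, Siglecf of lung and P2ry12 of brain macrophages, together with Lyve1, Vsig4, Spic, Timd4, Cd163 and Marco. These zeros allow between 0.0918 and 0.327 TPM, depending on gene length. Of the list 2 reached 1 TPM in every library. Siglec1, the sialic acid receptor CD169, was at 66.8, 69.3 and 68.8 TPM. Cx3cr1, the fractalkine receptor, was at 8.90, 8 and 8.49 TPM. Ccr2, the receptor of inflammatory monocytes, had 15, 19 and 10 counts.

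**Figure D3:**
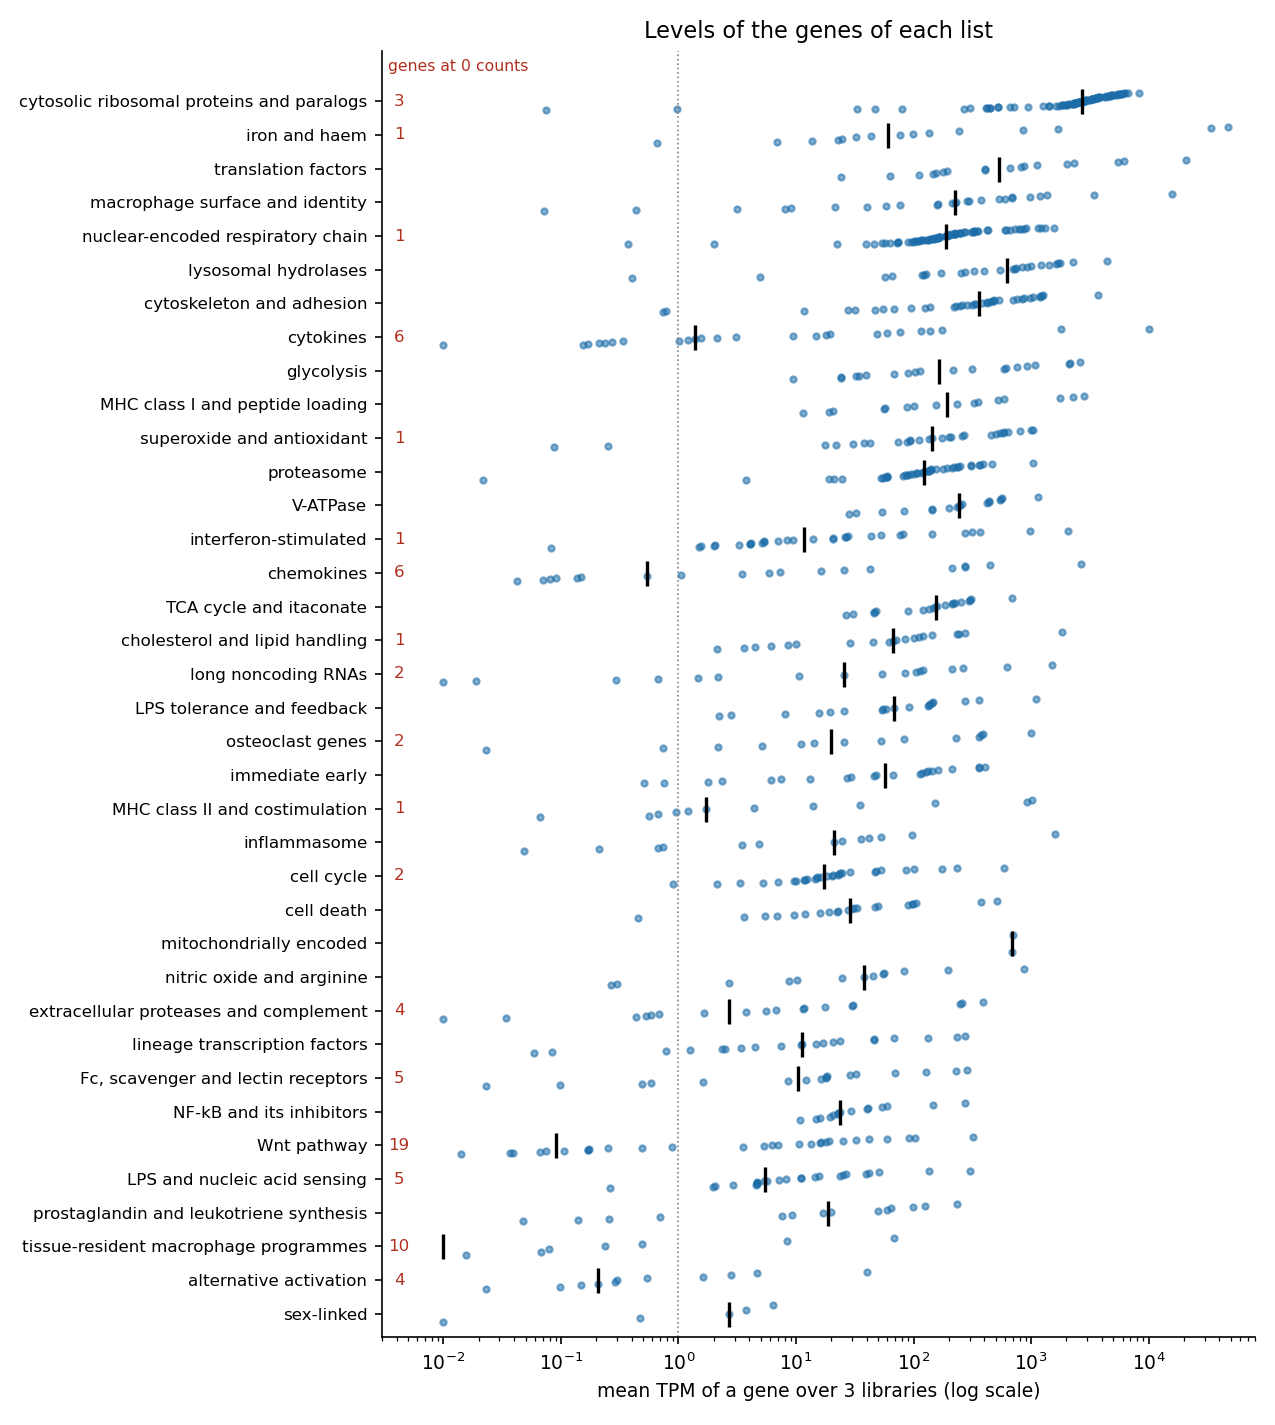
Mean TPM over 3 libraries (log scale, dotted line at 1 TPM) of every gene of each list in the table, lists ordered by their share of TPM. The black mark is the list's median, levels under 0.01 TPM are drawn at 0.01, and the red figure counts genes at 0 counts. Ribosomal, lysosomal and metabolic lists lie almost wholly above 1 TPM. At 0 counts are 10 of 17 tissue-resident genes and 19 of 48 Wnt pathway genes, against 34.0% of all protein-coding genes. The Wnt share is close to that of all protein-coding genes.

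All 20 glycolysis genes were above 1 TPM and held 1.19% ± 0.012 of TPM, led by the aldolase Aldoa at 2546, 2623 and 2611 TPM, Pkm, pyruvate kinase, at 2119, 2151 and 2151 TPM and Gapdh at 2113, 2059 and 2141 TPM. Ldha, which makes lactate, was at 309, 323 and 316 TPM. Of the glucose transporters, Slc2a1 was at 203, 233 and 218 TPM and Slc2a3 at 8.59, 10.7 and 9.02 TPM. All 20 genes of the tricarboxylic acid cycle with Acod1 were above 1 TPM, from 26.7 TPM for Suclg2 to 687 TPM for malate dehydrogenase Mdh2. Respiratory chain genes encoded in the nucleus held 2.26% ± 0.0098 of TPM, and 75 of 78 reached 1 TPM in every library. Ndufa11b had 0 counts, and Ndufb4b and Ndufb4c had 3, 7 and 11 counts and 1, 0 and 3 counts. The list was led by Cox4i1, a subunit of cytochrome c oxidase, at 1599, 1545 and 1591 TPM. The translation factors, all 18 above 1 TPM, held 4.21% ± 0.14 of TPM, and 42 of 43 proteasome genes were above 1 TPM, the exception being the thymus-specific Psmb11.

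In lipid handling, the fatty acid carriers Fabp5 and Fabp4 were at 1935, 1703 and 1837 TPM and 276, 260.3 and 281 TPM, and lipoprotein lipase Lpl at 257, 239 and 241 TPM. The cholesterol exporters differed, with Abcg1 at 97, 107 and 99 TPM and Abca1 at 3.46, 3.77 and 3.63 TPM. Apoe, an apolipoprotein that many tissue macrophages make in quantity, was at 9.13, 10.8 and 10.2 TPM. Ch25h, the cholesterol hydroxylase known as an interferon target, had 0 counts. Vim, the intermediate filament protein vimentin, led the cytoskeletal genes at 3642, 3733 and 3683 TPM. Itgax, the integrin CD11c, was at 0.924, 0.806 and 0.618 TPM.

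Cell cycle genes were present, with 29 of 32 at or above 1 TPM in every library. Cdkn1a, which encodes the cyclin-dependent kinase inhibitor p21, was the highest at 596, 584 and 603 TPM. Cdk4 was at 227, 229 and 243 TPM and the replication clamp Pcna at 179, 177 and 169 TPM, while the proliferation antigen Mki67 was at 14.8, 15.2 and 15.3 TPM and the mitotic cyclin Ccnb1 at 12.4, 12.3 and 11.3 TPM. The inhibitors Cdkn2a and Cdkn2b had 0 counts, which allows at most 0.364 and 0.297 TPM. Of the cell death genes, the killer Bax was at 493, 523 and 538 TPM and the survival factor Mcl1 at 375, 383 and 377 TPM, while Bcl2 was at 3.60, 3.74 and 3.57 TPM.

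Several genes of the osteoclast, the bone-resorbing cell that RAW264.7 can form, were present. Of the 16 listed, 12 reached 1 TPM in every library, against 47.3% of all protein-coding genes. Cathepsin K, the collagenase of bone, was at 997, 1025 and 979 TPM, the gelatinase Mmp9 at 388, 373 and 416 TPM and Acp5, the tartrate-resistant phosphatase, at 368, 372 and 376 TPM. Tnfrsf11a, the receptor RANK, was at 25.3, 26.3 and 25.5 TPM, and its ligand Tnfsf11 and decoy Tnfrsf11b had 0 counts. Other members were lower, with means of 14.1 TPM for Dcstamp, 5.16 TPM for Oscar, 2.15 TPM for Ocstamp and 0.742 TPM for Itgb3. The calcitonin receptor gene Calcr had 0, 1 and 1 counts. Among secreted proteases and complement, Plau, or urokinase, was at 264.6, 250.5 and 263 TPM and Cfp, or properdin, which stabilises the alternative pathway convertase, at 261, 240.0 and 244 TPM. C1qa, C1qb and C1qc, the subunits of C1q that macrophages are known to make, all had 0 counts, which allows at most 0.383 TPM in this list. C3 was at 12.5, 10.6 and 11.6 TPM.

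The Wnt pathway, which the study's title names, had its signal transducers but few ligands. Ctnnb1, which encodes beta-catenin, was at 328, 326 and 317 TPM, Dvl1, which relays the receptor signal, at 102, 104 and 104 TPM, and the kinase genes Gsk3a and Gsk3b at 90.8 ± 8.0 TPM and 25.4 ± 0.77 TPM. Axin1, the scaffold of the destruction complex, was at 18, 19.1 and 20.2 TPM, whereas Axin2, its inducible relative, had 0 counts, which allows at most 0.0756 TPM. Of the ligands in the list, Wnt6 was at 12.7, 13.6 and 13.8 TPM, Wnt2b had 4, 6 and 4 counts and Wnt5a, Wnt3a and Wnt11 were among those at 0 counts. The receptors Fzd5 and Fzd7 were at 10.5 ± 0.98 TPM and 6.24 ± 0.59 TPM, and the coreceptors Lrp5 and Lrp6 at 32.6 ± 1.6 TPM and 15.9 ± 0.62 TPM. The nuclear partners of beta-catenin were near zero, with 7, 0 and 0 counts for Lef1, 5, 10 and 11 counts for Tcf7 and 0 for Tcf7l1. Tcf7l2 was at 0.755, 0.945 and 0.956 TPM.

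Promoter sequence was compared across the tiers of level for the 13536 of 21770 protein-coding genes with a RefSeq promoter window within 100 bases of the deposited gene start. The CpG ratio, the number of CpG pairs over the number expected from the C and G content, was 0.6 or more in 12.1% of windows of genes with 0 counts and in 34.2% of those between 0 and 1 TPM. It was so in 66.8%, 80.9% and 79.7% of windows in the 3 tiers from 1 to 1000 TPM, and in 74.2% of the 93 windows of at least 1000 TPM. Without ribosomal protein genes the last share was 61.7% of 47. The TATA box letters TATAAA, on either strand, were in 25.6% of windows of genes at 0 counts, in 5.57% of those between 10 and 100 TPM and in 16.1% of those at 1000 TPM and over, against 14.8% of all windows. The lowest share was thus in a middle tier and not at either end.

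**Figure D4:**
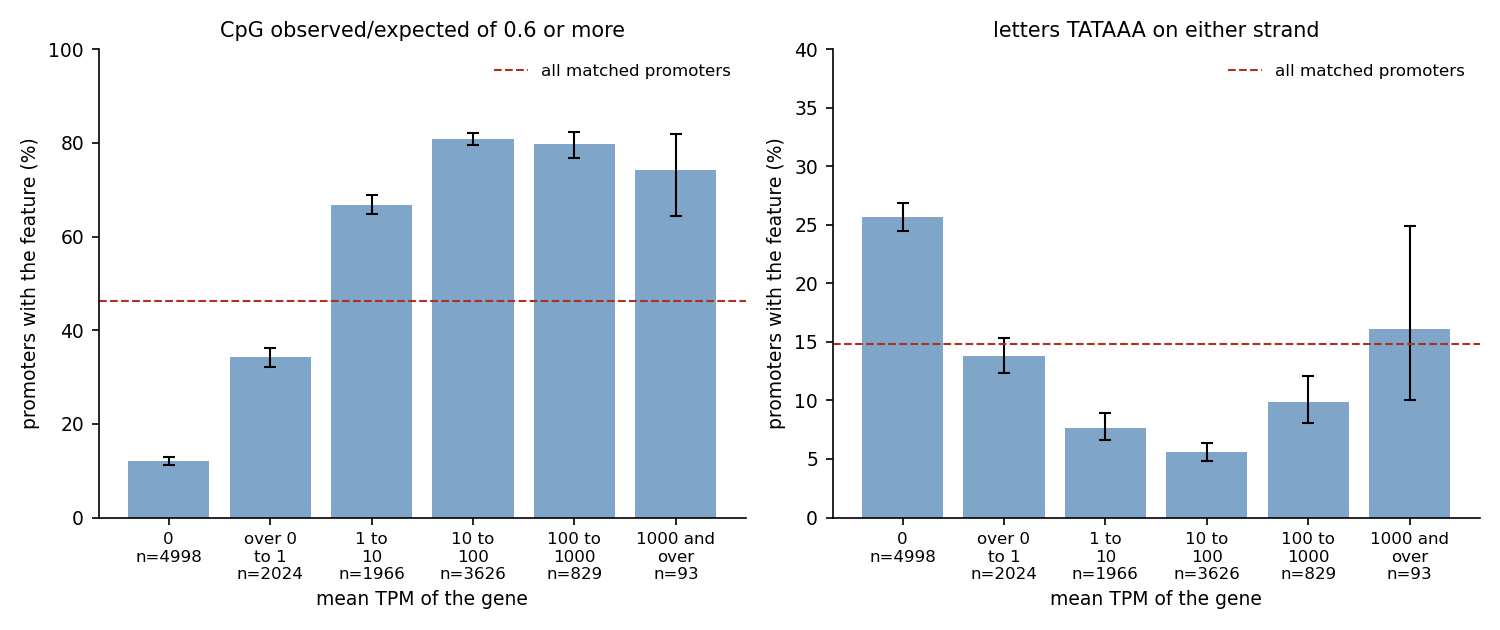
Share of RefSeq promoter windows (%) with a CpG ratio of at least 0.6 (left) and with the letters TATAAA on either strand (right), by mean TPM of the gene, with the number of windows under each bar. Error bars are 95% Wilson intervals over windows, and the dashed line is the share of all windows: the CpG-rich share is lowest at 0 TPM and the TATAAA share is lowest between 10 and 100 TPM.

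The function lists differed in the same features. Of the windows of ribosomal protein genes 82.8% were CpG-rich by this ratio, and so were all 9 of the V-ATPase and 84.2% of the respiratory chain, against 46.3% of all windows. Of the macrophage identity genes 1 of 15 was, of the cytokines 3 of 22, of the chemokines 2 of 15 and of the uptake receptors 1 of 13. The TATA box letters were in 8 of 22 cytokine and 7 of 15 chemokine windows. The CCAAT box was in 10 of 12 windows of the class I list, against 40.6% of all windows. The lists were picked for function and are small, so these shares describe the lists and were not tested.

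The whole windows of Ftl1, Lyz2, Spp1 and Il6 are given because they cover both ends of the level range: an iron storage gene, 2 macrophage products and an inflammatory gene with 2 or 3 counts per library. Capitals mark matches on either strand. The TATA box was searched as above, the GC box as the letters GGGCGG, and the CCAAT box by its name. The letters GAGGAAGT stood for PU.1, TGAGTCA for AP-1 and TGACGTCA for the cAMP response element. The E-box and the interferon core were searched as above, and NF-kB as its consensus site.
Ftl1 (chr7:45459837-45460136, minus strand): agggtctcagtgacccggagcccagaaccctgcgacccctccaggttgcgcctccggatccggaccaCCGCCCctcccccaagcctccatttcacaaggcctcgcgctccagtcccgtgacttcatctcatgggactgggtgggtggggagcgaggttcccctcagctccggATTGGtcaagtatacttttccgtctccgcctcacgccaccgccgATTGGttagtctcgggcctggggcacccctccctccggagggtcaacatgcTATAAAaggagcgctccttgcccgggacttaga
Lyz2 (chr10:117282223-117282522, minus strand): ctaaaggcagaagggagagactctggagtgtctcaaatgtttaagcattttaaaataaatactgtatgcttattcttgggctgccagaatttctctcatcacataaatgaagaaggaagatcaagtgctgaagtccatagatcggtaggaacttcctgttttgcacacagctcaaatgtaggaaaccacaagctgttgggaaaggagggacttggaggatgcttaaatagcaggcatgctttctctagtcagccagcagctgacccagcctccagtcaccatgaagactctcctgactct
Spp1 (chr5:104434861-104435160, plus strand): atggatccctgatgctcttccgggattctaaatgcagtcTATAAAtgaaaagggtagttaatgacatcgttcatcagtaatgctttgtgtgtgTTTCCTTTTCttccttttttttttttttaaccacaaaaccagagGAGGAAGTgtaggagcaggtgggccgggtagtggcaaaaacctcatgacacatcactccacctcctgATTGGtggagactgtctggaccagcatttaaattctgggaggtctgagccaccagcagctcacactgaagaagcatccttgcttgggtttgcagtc
Il6 (chr5:30012864-30013163, plus strand): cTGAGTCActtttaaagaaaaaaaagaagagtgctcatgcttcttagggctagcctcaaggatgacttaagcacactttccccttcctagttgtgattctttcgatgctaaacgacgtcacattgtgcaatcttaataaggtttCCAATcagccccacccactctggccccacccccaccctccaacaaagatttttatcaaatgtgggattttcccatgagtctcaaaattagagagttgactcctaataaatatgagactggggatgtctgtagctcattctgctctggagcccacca
The Ftl1 window had 20 CpG pairs, a ratio of 0.673, with matches to the GC box and 2 to the CCAAT box. Its TATA box letters began 17 bases after the annotated start. Whether the annotated start is the one used in these cells was not tested. The Lyz2 window had 1 CpG pair, a ratio of 0.068, and no match to any of these motifs. The Spp1 window had 3 CpG pairs and matches to the TATA box letters, the CCAAT box, PU.1 and the interferon core. Its TATA box letters began at position -211 from the annotated start. The Il6 window had 3 CpG pairs and matches to the CCAAT box and AP-1. It also holds gggattttcc, which is close to the fixed NF-kB letters but was not counted as a match. The abundant Lyz2 and Spp1 and the near-absent Il6 thus all had few CpG pairs. The PU.1 letters were in 3.32% of all windows, the GC box in 44.5%, AP-1 in 4.72%, the cAMP response element in 2.47% and the NF-kB letters in 0.14%.

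The libraries were close to each other for most genes, and immediate early genes were the main protein-coding exception among the lists. Over 7019 protein-coding genes of at least 10 TPM the median CV was 4.59%, and 89.6% had a CV under 10%. Library 1 was the lowest of the 3 for 44.7% of these genes, library 2 for 22.99% and library 3 for 32.3%. The largest CV among them was that of Fosb, a subunit of the AP-1 transcription factor, at 9.18, 34.1 and 45.4 TPM, from 274, 985 and 1267 counts. Its CV was 62.7%, against 3.45% from counting error alone. Its relative Fos was at 214, 388 and 476 TPM, and Egr1, a zinc-finger transcription factor, at 25.1, 49.1 and 62.8 TPM. In each of these library 1 was lowest and library 3 highest.

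These are immediate early genes, which cells induce within minutes of a stimulus. The list had 16 members of at least 10 TPM, with a median CV of 14.9%, and 15 of the 16 were lowest in library 1. Junb was at 337, 441 and 445 TPM, Jun at 94.4, 138 and 154 TPM, Dusp1, a MAP kinase phosphatase, at 105, 153 and 173 TPM and Ier2 at 47.6, 69.8 and 82.3 TPM. Atf3, a stress-induced repressor, was the exception at 137, 121 and 144 TPM. By comparison the median CV was 4.99% for the NF-kB list, of which 11 of 15 were also lowest in library 1, 3.62% for cytokines and 4.25% for chemokines of at least 10 TPM. The CV was 6.26% for Tnf, 3.98% for Nos2 and 4.29% for Ccl3, near that of most genes. Without library 1 the mean of Fosb was 39.8 TPM and that of Fos 431.8 TPM, against 29.6 and 359 TPM with it. The labels give no batch or harvest order for the libraries.

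**Figure D5:**
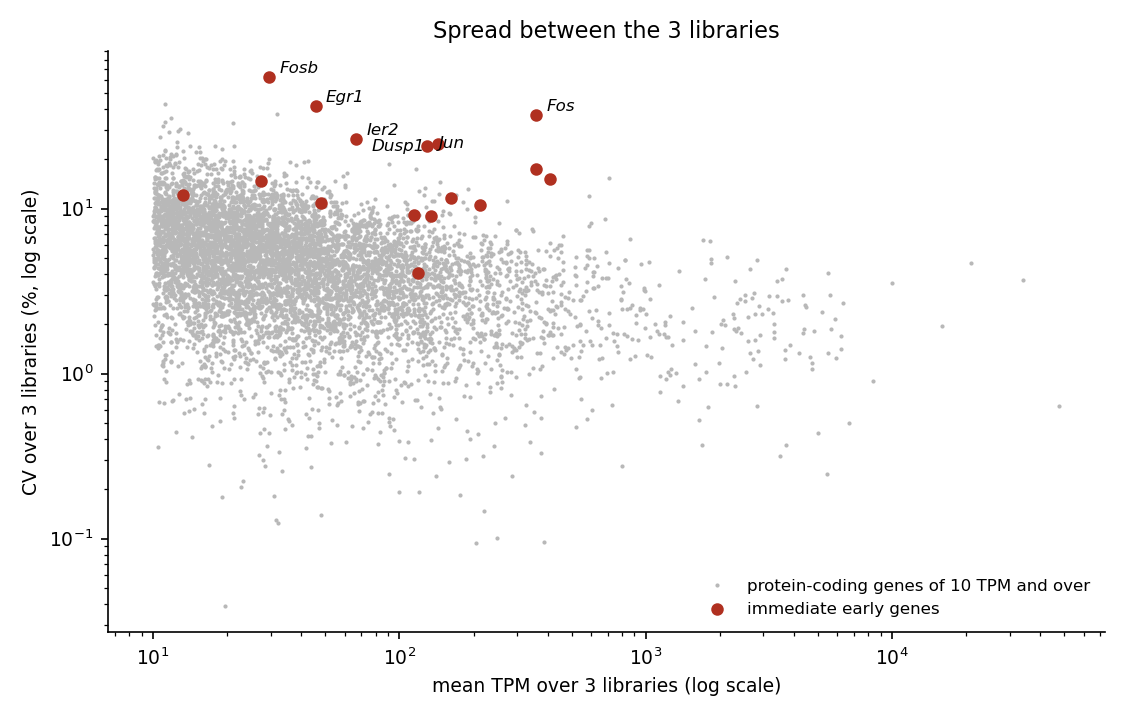
CV over the 3 libraries (%, log scale) against mean TPM (log scale) for protein-coding genes of at least 10 TPM (grey), with the 16 immediate early genes among them (red, named where the CV exceeded 20%). Fosb has a CV of 62.7%, against a median of 4.59% over all genes shown.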

How the data were processed

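RNA was measured in RAW264.7 cells under LPS (n = 3 libraries). Per the labels' protocols, mRNA was selected with oligo(dT), fragmented and sequenced as paired-end Illumina reads with an NEBNext Ultra kit. The build was mm10 and the tool named was bcl2fastq, per the submitters' processing notes. Not given in the sources used here are the aligner, the counter, the annotation release, the strand setting and the handling of reads with several matches. The authors deposited raw read counts per gene and TPM. The deposited TPM equals the count over the deposited gene length, scaled to the same sum in every library, to within 5.82e-11. The other deposited columns and tables, which hold the ultrasound libraries, transcripts and the authors' comparison, were not used.

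Samples were grouped by label. No comparison between conditions was made and no test was run. Shares, ranks and mean ± SD (n = 3) were computed in Python 3.11.15 with pandas 2.3.3 and numpy 2.4.6. edgeR 4.0.16 in R 4.3.3 gave TMM factors and a biological coefficient of variation of 4.85% over 12059 genes (minimum count 10). This step was tested on simulated data. A gene counted as detected at 1 TPM in all 3 libraries. There were 47 gene lists, which hold 931 genes of the table. Members, lists and named genes were chosen with earlier results of these data known. The rule for naming took the top 30 genes, up to 4 highest and all zero-count members of each list, the top 3 of each gene type, the 10 genes of largest CV among those of 10 TPM and over, and 12 activation and Wnt genes. Any other gene named was chosen after its values were seen, and some genes are not reported here. Promoter windows came from RefSeq (GRCm38.p6, the assembly of mm10). The alternatives tried were other thresholds, scalings and gene sets, and leaving out each library.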

Additional observations from a re-analysis of the deposited data

How the results depend on the processing

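No paired analysis was possible because the values describe 1 group and come from no test. The share of TPM held by the top 100 genes (44.4%) was 26.4% on counts, 45.6% over protein-coding genes and 44.6% without mitochondrial genes. It ranged from 44.0% to 44.7% when each library was left out. The mitochondrial genes left out were tRNA and rRNA genes with 0.103% of counts, so this setting removed little. The number of genes at 1 TPM in all 3 libraries (11382) was 12286 at 0.5 TPM, 10395 at 2 TPM, 11946 for a mean of 1 TPM, 11591 at 1 CPM, 11062 when 10 counts were also required and 11108 for genes of 200 bases and over, a setting chosen after seeing the data. It ranged from 11552 to 11559 without 1 library, where fewer libraries had to pass. The protein-coding share of counts (97.86%) was 96.2% of TPM and 97.96% without mitochondrial genes, and ranged from 97.84% to 97.88%. Of 45 list shares, 42 moved by more than 1 SD when taken on counts, 21 of 45 to a lower value. Of 233 named genes with counts, TMM factors moved none by more than 1 SD, and 97 of 184 protein-coding ones moved so when TPM was taken over protein-coding genes, which raises all levels alike. Leaving out 1 library moved the mean by over 1.5 times for Rn7s2 (266 to 821.9 TPM), Rn7s1 (144 to 322 TPM), Snord21 (9.79 to 18.9 TPM) and Gm25321 (8.59 to 17.3 TPM) among named genes of 1 TPM and over. Depth limits genes under 1 TPM, whose median CV was 86.6%.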

Other observations

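Chaperones were among the top 100 genes without being in a list. Hspa5, the chaperone BiP of the endoplasmic reticulum, was at 2688, 2647 and 2618 TPM, and the constitutive heat shock protein gene Hspa8 at 1912, 1745 and 1862 TPM. The mitochondrial tRNA gene TrnE was also there at 1976, 2055 and 1952 TPM, from a length of 69 bases. By chromosome, 7 and 11 held the most counts, 9.91% ± 0.026 and 9.06% ± 0.033, and chromosome 7 carries Ftl1. Genes of the Y chromosome held 0.00837% ± 0.00044 of counts, led by Eif2s3y, a translation initiation factor, at 6.42, 6.19 and 6.53 TPM. Xist, the transcript that silences an X chromosome in female cells, had 0, 0 and 2 counts, and the line came from a male mouse.

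Of the 10 genes of largest CV at 10 TPM and over, those other than Rn7s2, Rn7s1 and Fosb were short and rested on few counts. Mir7117 had 2, 10 and 13 counts, Snord49a 14, 10 and 2 counts, Mir1291 16, 3 and 18 counts, Gm26165 26, 21 and 4 counts, Gm25321 18, 9 and 4 counts, Snord21 6, 8 and 18 counts and Mir7-1 15, 7 and 25 counts. Their CVs of 60.1% to 69.8% compare with 24.3% to 34.6% from counting error. Of 1180 microRNA genes 976 had 0 counts and 15 had 10 or more in every library. The highest was Mir142b at 229, 221 and 246 counts, while Mir142 on the opposite strand of the same place had 0. Mature microRNAs carry no poly(A) tail, so these counts do not give their levels, and reads of the 2 strands cannot be told apart if strand was not used.

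Of 7327 genes of 10 TPM and over, 118 differed between libraries by at least 1.5-fold and 47 by at least 2-fold. Other lists also leaned to library 1 as the lowest among members of 10 TPM and over: 14 of 19 for glycolysis, with a median CV of 2.51%, 11 of 15 for NF-kB and its inhibitors and 16 of 26 for oxidative burst and antioxidant genes. Over all protein-coding genes of that level the share was 44.7%. The ribosomal protein list leaned to library 2, with 53 of 82 lowest there, against 22.99% of all protein-coding genes of 10 TPM and over.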
